A study of Homo sapiens with 9 samples.

Results

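The keratin gene clusters were examined in ATAC-seq peak lists of a human prostate cancer line, with luminal keratin genes set against basal ones. Peaks of all 9 libraries that shared at least 1 bp were joined, and every joined region was kept that overlapped the type II cluster on chromosome 12, from 52.55 to 53.37 Mb of hg19, or the type I cluster on chromosome 17, from 38.8 to 39.8 Mb. This gave 101 of 94773 regions. Of these, 70 belonged to the consensus of 66108 regions that 2 or more of the 3 libraries in any 1 group shared, 46 of them in the type II and 24 in the type I cluster. The 8 genes looked at singly were KRT8, KRT18 and KRT19 as luminal genes, KRT5, KRT14, KRT15 and KRT17 as basal genes, and KRT7.

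The assay uses the transposase Tn5, which inserts adapters where chromatin is accessible, and a peak is a stretch with many insertions. VCaP is a prostate cancer line, and its genotype is labelled WT in all 3 groups. VCaP16 libraries (n = 3) came from an enzalutamide-resistant VCaP line grown with 16 µM enzalutamide, an inhibitor of the androgen receptor. VCaP_ENZ libraries (n = 3) came from VCaP cells given 10 µM enzalutamide for 96 h, and VCaP_DMSO libraries (n = 3) from VCaP cells given the solvent DMSO. All VCaP16 libraries carried the drug, so resistance and the drug itself cannot be told apart against VCaP_DMSO, and the dose also differed between the drug groups. VCaP16 is 1 derived line. Nothing in the labels ties replicates to cultures of their own, so any p-value measures the spread between libraries, which may be technical. In these bulk lists, a place open in few cells and a place weakly open in many cannot be told apart. The lists hold 53776 to 69104 peaks, the longest being that of VCaP16 replicate 3. Without read counts in the lists, sequencing depth is unknown. Gene positions on hg19 came from general knowledge of the annotation and not from a file. Their spacing along each cluster was compared with RefSeq's gene table on another build. Each of the 8 genes had the start of its whole span within 500 bp of the spacing there. For KRT8 that is the start of its longest transcripts, so the main KRT8 start used here was recalled and not checked.

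Keratins are the intermediate filament proteins of epithelia, and a filament is built from pairs of 1 type I and 1 type II chain. Simple epithelia, among them the luminal cells of the prostate, are known for KRT8 and its partner KRT18, often with KRT19. Basal cells are known for KRT5 and its partner KRT14, with KRT15 and KRT17. The genes lie in a type II and a type I cluster, in which neighbours serve very different tissues, from hair to intestine. KRT18, a type I gene, is the exception and lies beside KRT8 in the type II cluster.

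RefSeq's promoter table (GRCh38.p14) held 2 of the 8 genes, KRT5 and KRT8. KRT5 is a basal gene with no peak at its start, and KRT4 a neighbour with a region near its start among the best-ranked places. The 250 bases before the start are printed for both and for the upstream start that the table gives KRT8. All 3 are read 5′ to 3′ along the gene, which is the minus strand, at chr12:52814117-52814366 for KRT4, chr12:52520395-52520644 for KRT5 and chr12:52926470-52926719 for KRT8. Capitals mark a match to TATAA, the core of the TATA box.
KRT4: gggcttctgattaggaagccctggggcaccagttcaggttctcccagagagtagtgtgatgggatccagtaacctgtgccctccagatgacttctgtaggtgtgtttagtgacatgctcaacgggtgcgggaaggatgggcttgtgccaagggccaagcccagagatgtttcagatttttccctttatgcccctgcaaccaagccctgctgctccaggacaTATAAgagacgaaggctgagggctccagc
KRT5: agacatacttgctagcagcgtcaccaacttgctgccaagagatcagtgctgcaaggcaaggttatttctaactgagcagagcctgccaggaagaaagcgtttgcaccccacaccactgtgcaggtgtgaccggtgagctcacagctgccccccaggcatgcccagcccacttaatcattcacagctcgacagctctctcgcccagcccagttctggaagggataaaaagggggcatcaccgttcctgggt
KRT8: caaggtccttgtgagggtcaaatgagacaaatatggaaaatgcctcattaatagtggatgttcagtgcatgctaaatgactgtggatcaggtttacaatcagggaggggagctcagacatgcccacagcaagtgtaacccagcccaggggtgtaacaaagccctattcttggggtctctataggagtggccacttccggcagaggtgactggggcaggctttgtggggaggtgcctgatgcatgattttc
The stretches were searched on both strands for TATAA, for CCAAT, for the GC box GGGCGG and for TGANTCA, which AP-1 factors bind. KRT4 held TATAA, whose first base lies 29 bases before the start, and no other match was found in the 3 stretches. Only these exact strings were searched, so KRT5 and KRT8 are not shown to lack variants of them, such as ataaaa near the end of the KRT5 stretch. Of the 35116 promoters in the table, 18.9% held TATAA in the same 250 bases, 32.0% CCAAT, 42.6% GGGCGG and 6.57% TGANTCA. The upstream KRT8 start lies 21.4 kb above the gene's main start, and the nearest called region, described with the interval between KRT8 and KRT18, began 787 bp further upstream, so no peak lay over the KRT8 stretch printed here.

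The starts of all 3 luminal genes were open in every library, and the starts of all 4 basal genes were open in none. A start was counted as open if a peak lay within 1 kb of it. KRT8, KRT18 and KRT19 each had such a peak in 3 of 3 VCaP16, 3 of 3 VCaP_ENZ and 3 of 3 VCaP_DMSO libraries. KRT5, KRT14, KRT15, KRT17 and KRT7 had one in 0 of 9 libraries. The split was the same with the minimum score of 5, with lists of equal length, with 500 bp in place of 1 kb and with each library left out.

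**Figure D1:**
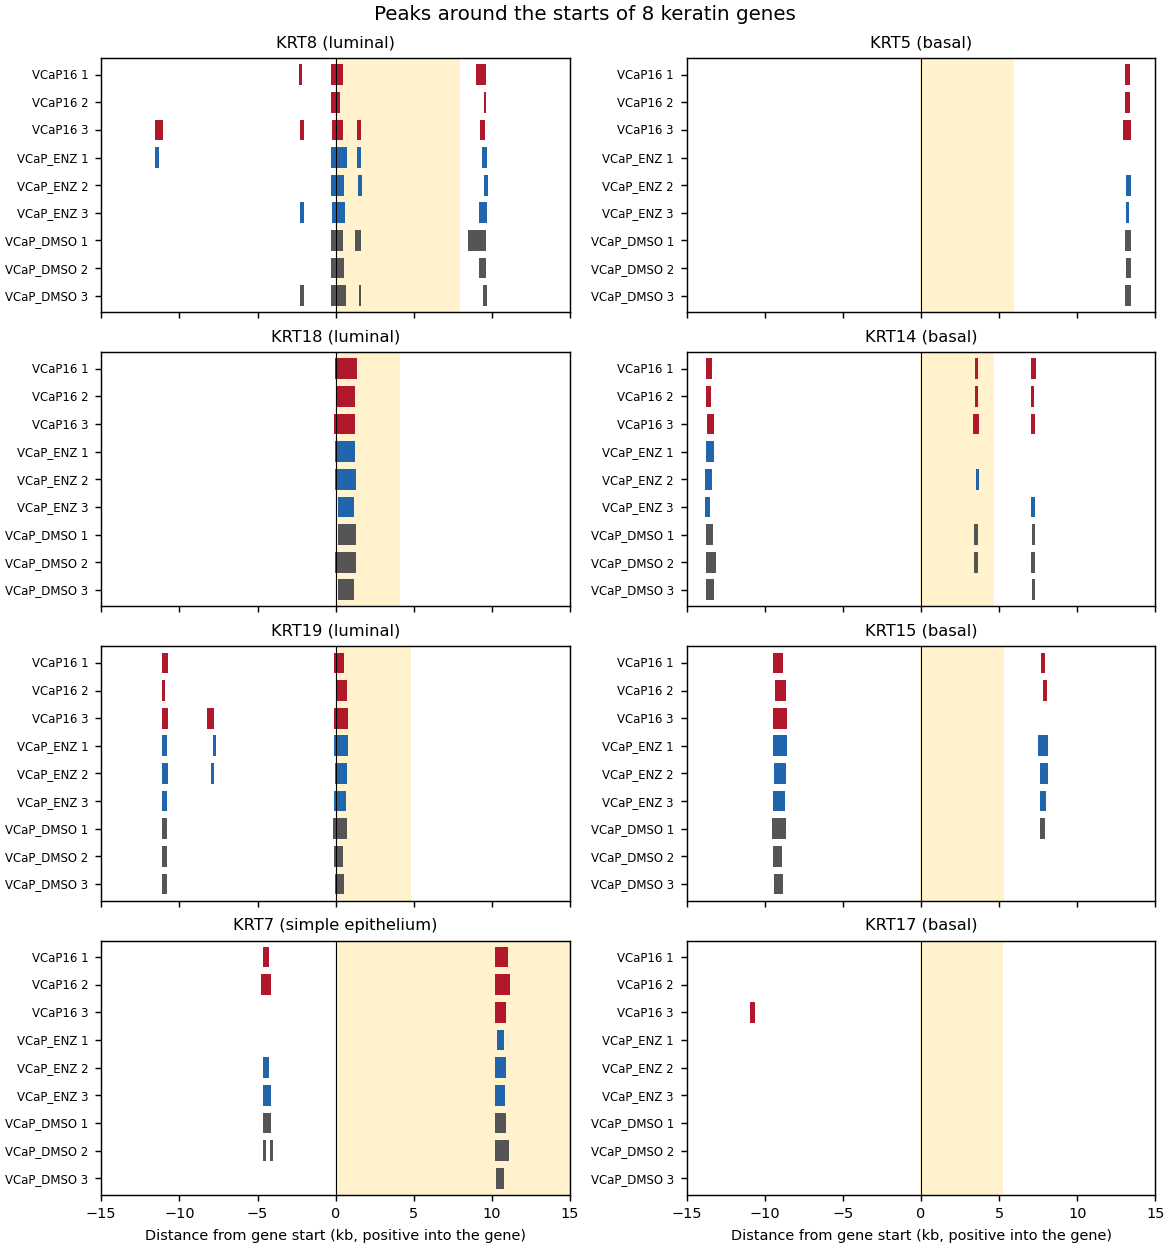
Peaks of each library around the starts of the 8 keratin genes. The x axis is the distance from the gene start in kb, positive into the gene, each row is 1 library, each bar 1 peak, and shading marks the gene. The starts of KRT8, KRT18 and KRT19 carried a peak in all 9 libraries and those of KRT5, KRT14, KRT15, KRT17 and KRT7 in none.

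KRT8, the type II keratin of simple epithelia, had the best-ranked start among the 8 genes. The region over it lay at chromosome 12, 53298161 to 53299187, and ran from -0.319 kb to 0.707 kb relative to the start, positive into the gene. Ranks are given as the position of the best peak in its own list, in percent from the top. The KRT8 peak stood at 13.0%, 18.6% and 20.3% in VCaP16 replicates 1 to 3, at 14.3%, 27.6% and 13.8% in VCaP_ENZ and at 18.2%, 14.1% and 27% in VCaP_DMSO. Whole lists differ in length, so groups were compared on the 53646 best peaks of each library. In these equal lists the KRT8 peak stood at 14.0%, 19.9% and 26.1% in VCaP16, at 14.4%, 31.8% and 13.8% in VCaP_ENZ and at 19.5%, 14.4% and 27% in VCaP_DMSO. The groups overlapped. The peak was 789, 595 and 729 bp wide in VCaP16, 980, 795 and 793 bp in VCaP_ENZ and 800, 784 and 956 bp in VCaP_DMSO. The widths of VCaP_DMSO fell within those of the VCaP_ENZ and VCaP16 libraries together, and 1 VCaP16 library had the narrowest peak.

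KRT18, the type I partner of KRT8, had the widest start region of the 8 genes, at chromosome 12, 53342570 to 53343999. It reached from -0.085 kb to 1.34 kb relative to the start, and also covers the start of the longest KRT8 transcripts, which run in the opposite direction. Its peak stood at 28.7%, 30.2% and 26.4% from the top in VCaP16, at 15.7%, 35.9% and 14.4% in VCaP_ENZ and at 21.1%, 23.1% and 33.4% in VCaP_DMSO. In lists of equal length it stood at 31.0%, 32.2% and 33.9% in VCaP16, at 15.8%, 41.3% and 14.4% in VCaP_ENZ and at 22.7%, 23.6% and 33.5% in VCaP_DMSO. These ranges overlapped as well. The widths were 1399, 1187 and 1350 bp in VCaP16, 1258, 1324 and 1049 bp in VCaP_ENZ and 1210, 1356 and 1078 bp in VCaP_DMSO, with no group apart from the others.

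KRT19, a small type I keratin of simple epithelia, was open at its start but stood lower in the lists. The region lay at chromosome 17, 39683856 to 39684790. Its peak stood at 69.6%, 76.7% and 49.6% from the top in VCaP16, at 69.1%, 53.1% and 55.3% in VCaP_ENZ and at 37.0%, 54% and 63.2% in VCaP_DMSO. In lists of equal length it stood at 75.1%, 81.9% and 63.7% in VCaP16, 69.6%, 61.2% and 55.3% in VCaP_ENZ and 39.8%, 55.2% and 63.3% in VCaP_DMSO. All 3 VCaP16 libraries thus lay further from the top than all 3 VCaP_DMSO libraries, narrowly so for VCaP16 replicate 3 against VCaP_DMSO replicate 3. Such a separation was found for 10.6% of the 31870 regions called in all 9 equal lists, and 3 libraries against 3 allow no p below 0.1, so it was not tested.

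Upstream of KRT19, a region outside the gene ranked above its start. One lay 20.4 kb upstream, at chromosome 17, 39705022 to 39706187, between KRT19 and KRT9, and was called in all 9 libraries with a median rank of 13.7% from the top. In lists of equal length it stood at 10.0%, 16.4% and 9.66% in VCaP16, 13.8%, 14.6% and 24.4% in VCaP_ENZ and 6.75%, 21.9% and 15.7% in VCaP_DMSO, and the groups overlapped. This was the best-ranked region of the type I cluster. A region 10.7 kb upstream was also called in all 9 libraries, and one 7.68 kb upstream in 1 of 3 VCaP16, 2 of 3 VCaP_ENZ and 0 of 3 VCaP_DMSO libraries.

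The order of the luminal starts was the same in every library. The median rank over 9 libraries was 18.2% from the top for KRT8 (13.0% to 27.6%), 26.4% for KRT18 (14.4% to 35.9%) and 55.3% for KRT19 (37.0% to 76.7%). The ranges of KRT8 and KRT18 overlapped, yet KRT8 stood nearer the top than KRT18 within 9 of 9 libraries, and KRT18 nearer than KRT19 within 9 of 9. The median rank of all consensus regions was 55.7%, close to that of KRT19.

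**Figure D2:**
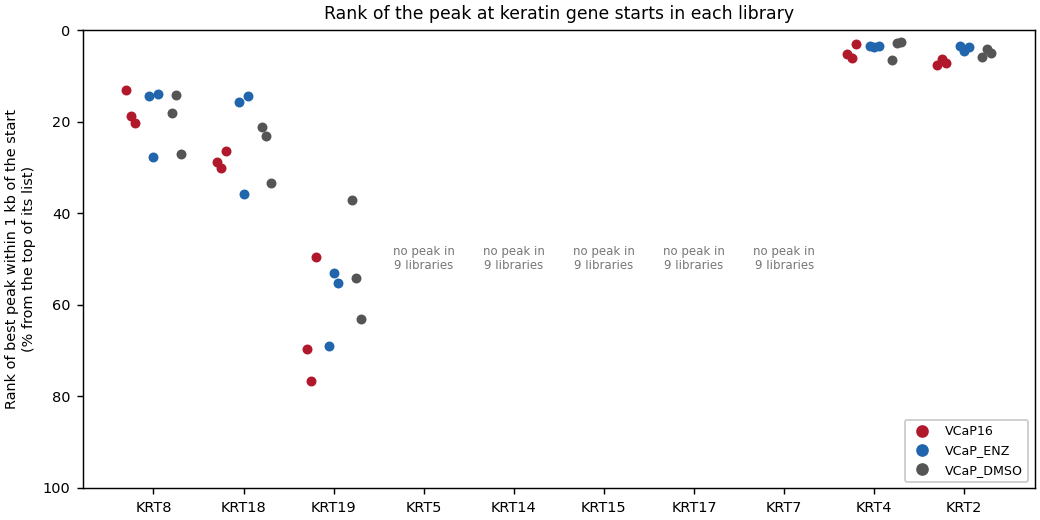
Rank of the best peak within 1 kb of the start of each gene, in percent from the top of its own list, so that higher points are nearer the top. Each point is 1 library, with VCaP16 left, VCaP_ENZ in the middle and VCaP_DMSO right. KRT8 ran from 13.0% to 27.6%, KRT18 from 14.4% to 35.9% and KRT19 from 37.0% to 76.7%, the 4 basal genes and KRT7 had no peak in 9 libraries, and KRT4 and KRT2 ranked best.

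The basal genes had hardly a peak anywhere in their bodies. KRT5, the type II keratin of basal cells, had none within 2 kb of the gene in any library. The nearest region lay 12.9 kb from its start, past the end of the gene, at chromosome 12, 52900802 to 52901333, and was called in 3 of 3 VCaP16, 2 of 3 VCaP_ENZ and 3 of 3 VCaP_DMSO libraries. KRT15, a type I keratin of basal cells, also had none within 2 kb, although its start lies only 4.6 kb from the end of KRT19. The nearest regions to the KRT15 start were 7.51 kb away past the end of the gene, called in 2 of 3 VCaP16, 3 of 3 VCaP_ENZ and 1 of 3 VCaP_DMSO libraries, and 8.58 kb upstream, which is the KRT19 start. KRT17, a type I keratin of basal and stressed epithelia, had its nearest region 10.7 kb upstream, in VCaP16 replicate 3 alone.

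KRT14, the type I partner of KRT5, was the only one of the 4 basal genes with a region at its locus. It lay inside the gene at chromosome 17, 39739431 to 39739826, between 3.32 and 3.72 kb from the start. It was called in 3 of 3 VCaP16, 1 of 3 VCaP_ENZ and 2 of 3 VCaP_DMSO libraries. Where called, its peak stood at 72.0%, 61.4% and 61.9% from the top in VCaP16, 55.3% in VCaP_ENZ replicate 2, and 54.8% and 62.2% in VCaP_DMSO replicates 1 and 2, so it lay below the middle of each list. A region 13.2 kb upstream of KRT14 was called in all 9 libraries. A region 7.04 kb from the start, past the end of the gene, was called in 3 of 3 VCaP16, 1 of 3 VCaP_ENZ and 3 of 3 VCaP_DMSO libraries. KRT14, KRT16 and KRT17 have closely similar pseudogene copies elsewhere on the chromosome, and the sources used here do not give how reads with several matches were placed. Their part in the KRT14 region was not tested.

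KRT7, a type II keratin of simple and ductal epithelia, had no peak at its start and 1 region in its body. That region, at chromosome 12, 52637132 to 52638096, began 10.2 kb into the gene and was called in all 9 libraries. In lists of equal length its peak stood at 83.6%, 55.8% and 76.3% from the top in VCaP16, 55.5%, 59.4% and 45.9% in VCaP_ENZ and 51.7%, 82.4% and 79.5% in VCaP_DMSO. The groups overlapped. A region 4.01 kb upstream of the start was called in 2 of 3 libraries of each group.

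Counted by locus, luminal genes carried more regions than basal genes in every library. A locus was the gene with 2 kb on either side, which came to 28.7 kb for KRT8, KRT18 and KRT19 together and 27.8 kb for KRT5, KRT14 and KRT15. Luminal loci held 4, 4 and 5 called regions in VCaP16 replicates 1 to 3, 5, 5 and 4 in VCaP_ENZ and 5, 4 and 5 in VCaP_DMSO. Basal loci held 1, 1 and 1 in VCaP16, 0, 1 and 0 in VCaP_ENZ and 1, 1 and 0 in VCaP_DMSO, all of them the KRT14 region. Luminal minus basal came to 3.33 ± 0.577 regions in VCaP16, 4.33 ± 0.577 in VCaP_ENZ and 4 ± 1.0 in VCaP_DMSO (SD, n = 3 each). With all peaks kept, the group means differed by at most 1 region, and their ranges touched or overlapped. Of the 5 consensus regions at luminal loci 4 were called in all 9 libraries, and of the 1 at basal loci none, beside 50% of all consensus regions. With a minimum score of 5 the luminal minus basal values were 2.33 in VCaP16, 4.33 in VCaP_ENZ and 3 in VCaP_DMSO, so VCaP16 and VCaP_ENZ then lay 2 regions apart.

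**Figure D3:**
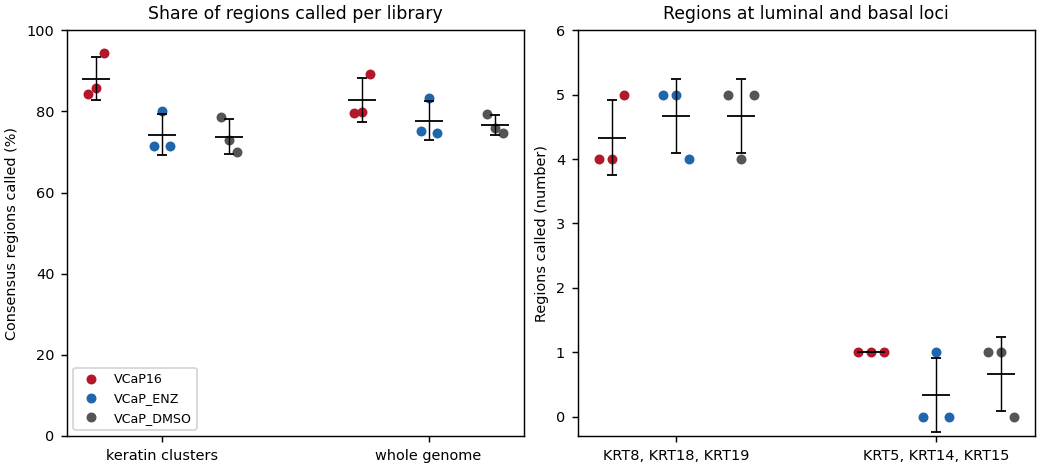
Left, percent of consensus regions called per library in the keratin clusters and in the whole genome. Right, number of regions called at luminal and basal loci. Points are libraries, and horizontal marks with bars are the mean ± SD of 3 libraries. Luminal loci held 4 or 5 regions and basal loci 0 or 1 in every library, and VCaP16 lay above the other groups in the keratin clusters.

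The stretch of KRT8 and KRT18, whose starts lie 43.8 kb apart, held 8.73 consensus regions per 100 kb, the highest density of the 11 stretches of the clusters. The stretch from KRT80 to KRT7 followed closely with 8.09, and that from KRT81 to KRT82 with 7.44. At the far end of KRT8, 8.46 kb from its start, a low-ranked region was called in all 9 libraries, with a median rank of 89.2%. A region 1.25 kb into KRT8 was called in 1 of 3 VCaP16, 2 of 3 VCaP_ENZ and 2 of 3 VCaP_DMSO libraries. A region 2.03 kb upstream of the start was called in 2 of 3 VCaP16, 1 of 3 VCaP_ENZ and 1 of 3 VCaP_DMSO libraries.

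One region of the interval ranked lower in VCaP_ENZ than in the other groups. It lay inside the long KRT8 transcripts, 22.2 kb upstream of the main start, at chromosome 12, 53321036 to 53321590. It was called in all 9 libraries. In lists of equal length its peak stood at 31.8%, 45.4% and 43.8% from the top in VCaP16, at 82.3%, 84.7% and 74.1% in VCaP_ENZ and at 61.4%, 41.8% and 54% in VCaP_DMSO. All VCaP_ENZ libraries thus ranked it lower than every VCaP16 and every VCaP_DMSO library, while VCaP16 and VCaP_DMSO overlapped. This pattern was found for 2 of the 31 keratin regions called in all 9 equal lists and for 1.7% of all 31870 such regions. The other was at chromosome 12, 52766416 to 52766787, between the hair keratin genes KRT85 and KRT84. There the peak stood at 25.5%, 17.4% and 28.3% in VCaP16, at 35.2%, 32.8% and 54.8% in VCaP_ENZ and at 25.8%, 26.8% and 26.1% in VCaP_DMSO. Both were picked out after their values were seen, and 3 libraries against 3 allow no p below 0.1.

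**Figure D4:**
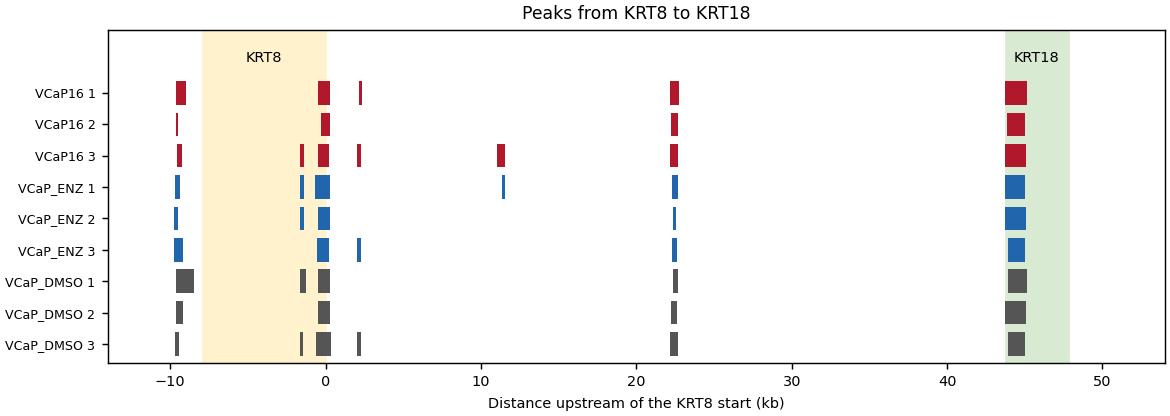
Peaks from KRT8 to KRT18. The x axis is the distance upstream of the main KRT8 start in kb, each row is 1 library, each bar 1 peak, and shading marks both genes. Peaks over both starts, past the end of KRT8 and 22.2 kb upstream were called in all 9 libraries.

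Most other keratin genes had no peak at their starts. Of 55 keratin genes placed on the clusters, 50 had starts that passed the spacing check, KRT8 by the start of its longest transcripts. Of the 50, 42 were not among the 8 genes above. Of the 42, 38 had no peak within 1 kb of the start in any library. KRT4, a keratin of mucosal epithelia, had one in all 9 libraries, as did KRT2, an epidermal keratin, where it lay inside the gene and not over the start, KRT80 in 3 of 3 VCaP16, 3 of 3 VCaP_ENZ and 2 of 3 VCaP_DMSO libraries, and the hair keratin KRT83 in VCaP16 replicate 1 alone. By group, 0 of 14 hair keratins, 1 of 8 epidermal keratins and 1 of 4 mucosal keratins were open in all 9 libraries, and the start of KRT20, the intestinal keratin, was open in none.

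The best-ranked places of the clusters were not at luminal genes. The first, by median rank, lay between KRT3 and KRT4 at chromosome 12, 53194434 to 53195203, 2.41% from the top. The second covered the recalled start of KRT4 at chromosome 12, 53207901 to 53208779, at 3.43%. That start differed by 433 bp from RefSeq's spacing, so the region may lie beside RefSeq's start and not over it. Next came a region between KRT73 and KRT2 at 53027868 to 53028636 (5.0%) and another inside KRT2 at 53044205 to 53045057 (5.04%). The fifth lay at the end of the hair keratin gene KRT86, at 52701987 to 52703097 (11.5%). All 5 were in the type II cluster and were called in all 9 libraries. Within 9 of 9 libraries the KRT4 and the KRT2 peaks ranked above that of KRT8. In lists of equal length the KRT2 peak stood at 8.2%, 6.6% and 9.2% in VCaP16, 3.4%, 5.1% and 3.7% in VCaP_ENZ and 6.2%, 4.2% and 5.1% in VCaP_DMSO, so that all 3 VCaP16 libraries ranked it further from the top than the other 6. A region between KRT28 and KRT10, at chromosome 17, 38959904 to 38960323, was so placed too. Taken singly, such a separation was found for 10.6% of regions against VCaP_DMSO and 9.76% against VCaP_ENZ. The share of regions with both was not computed.

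Regions were unevenly spread along the clusters. The longest stretch without a region in any library was 158 kb long and lay among the KRTAP genes, which encode proteins of the hair shaft. The next, of 91.4 kb, held the hair keratin genes KRT33A, KRT33B, KRT34 and KRT31, and one of 62.6 kb held KRT38, KRT32 and KRT35. In the type II cluster the longest, of 58.8 kb, held KRT76 and KRT3. The keratin regions were otherwise like the rest: 48.6% were called in all 9 libraries, beside 50% of all consensus regions, their median width was 572 bp beside 639 bp, and their median rank 57.2% from the top beside 55.7%.

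**Figure D5:**
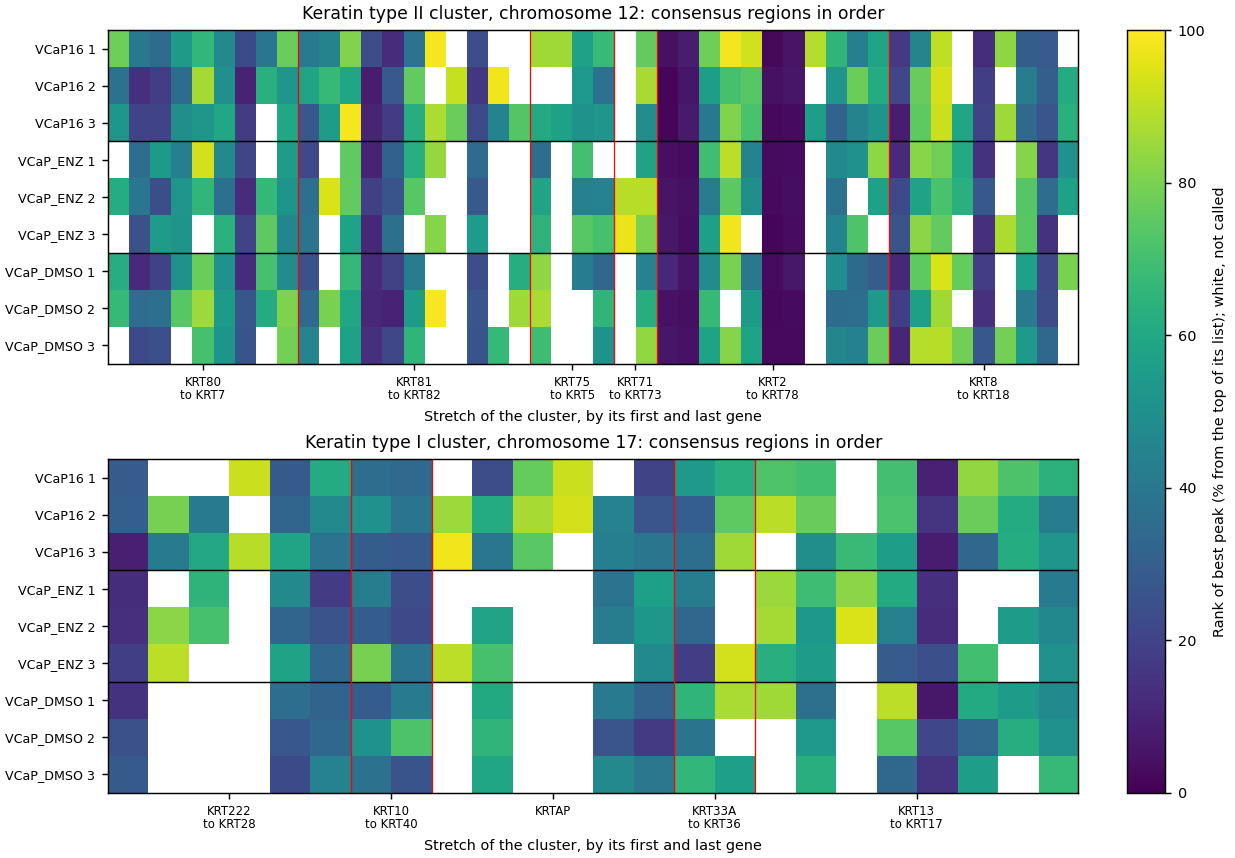
Rank of the best peak in each consensus region of both clusters (columns, in order along the chromosome) in each library (rows, VCaP16 at the top, VCaP_DMSO at the bottom). Colour gives the percent from the top of the list, white means not called, and red lines part stretches named by their first and last gene. Of the 5 best-ranked regions 4 lie in the stretch from KRT2 to KRT78, and in the KRTAP stretch VCaP16 libraries called 4 to 6 of 6 regions.

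Which keratin regions opened or closed with resistance or with the drug was asked by counting regions called in 3 of 3 libraries of 1 group and 0 of 3 of another. In VCaP16 against VCaP_DMSO, 1 of 70 keratin regions was called in all VCaP16 and no VCaP_DMSO libraries, beside 2.33% of all consensus regions, and 0 showed the reverse, beside 0.762%. In VCaP_ENZ against VCaP_DMSO the count was 0 in both directions, beside 0.936% called with the drug alone and 0.799% with the solvent alone. In VCaP16 against VCaP_ENZ it was 1, beside 1.62%, and 0 in reverse, beside 0.588%. In VCaP16 against all 6 VCaP libraries it was 1, beside 0.787%, and 0 in reverse, beside 0.126%. None of these regions lay at the 8 genes. The comparisons share libraries and are not independent.

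These counts moved when 1 library was left out. For VCaP16 against VCaP_DMSO the count was 5 of 65 without VCaP16 replicate 1, beside 4.95% of all consensus regions then formed. It was 4 of 66 without VCaP16 replicate 2, beside 4.9%, and 2 of 63 without VCaP16 replicate 3, beside 3.33%. It was also 2 of 69 without VCaP_DMSO replicate 1, beside 4.02%, and without VCaP_DMSO replicate 2, beside 3.39%. For VCaP16 against VCaP_ENZ it was 3 of 65, 4 of 66 and 2 of 63 without VCaP16 replicates 1, 2 and 3, beside 3.9%, 3.9% and 2.51%. Without VCaP_ENZ replicates 2 and 3 it was 4 of 68 and 3 of 69, beside 3.54% and 2.41%. For VCaP16 against all VCaP libraries it was 2 of 65, 4 of 66 and 2 of 63 without VCaP16 replicates 1, 2 and 3, beside 2.12%, 2.08% and 1.29%.

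A call in at least 2 of 3 libraries of 1 group and none of the other gave larger counts. For VCaP16 and not VCaP_DMSO it held for 9 of 70 keratin regions (12.9%), beside 7.88% of all consensus regions, and for 0 in reverse, beside 2.99%. For VCaP_ENZ and not VCaP_DMSO it held for 4, beside 4.15%, and for 1 in reverse, beside 3.42%. For VCaP16 and not VCaP_ENZ it held for 7 (10.0%), beside 6.58%, and for 1 in reverse, beside 2.83%. For VCaP16 and none of 6 VCaP libraries it held for 6 (8.57%), beside 3.66%, and in reverse, with at least 4 of 6 VCaP libraries, for 0, beside 1.28%. Of these 6 regions 5 were called in exactly 2 VCaP16 libraries, a pattern found for 2.87% of all consensus regions. All 6 entered the consensus through VCaP16 alone, since 2 libraries of a group suffice, and the same holds for the share beside them. The reverse asked for a larger number of libraries, so the directions are not alike. No test was made of these counts.

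Ranks in lists of equal length were compared for the 31 keratin regions called in all 9 of them. All 3 VCaP16 libraries ranked 1 region nearer the top than all 3 VCaP_DMSO libraries, beside 9.59% of all such regions, and 3 further from it, beside 10.6%. All 3 VCaP_ENZ libraries ranked 1 region nearer than all 3 VCaP_DMSO libraries, beside 8.48%, and 4 further, beside 7.33%. All 3 VCaP16 libraries ranked 2 regions nearer than all 3 VCaP_ENZ libraries, beside 7.85%, and 3 further, beside 9.76%. With 31 regions these counts lie near the background.

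The region behind each count of 1 was the same. It lay among the KRTAP genes at chromosome 17, 39458395 to 39458997, 4.99 kb from KRTAP16-1. Its scores were 6.2, 5.05 and 7.23 in VCaP16 replicates 1 to 3, and it was not called in any VCaP_ENZ or VCaP_DMSO library. It stood at 76.5%, 87.0% and 74.3% from the top, so it ranked low in each list. It was still called in all VCaP16 and no other libraries with a minimum score of 5, with lists of equal length and with an overlap of at least 50%. A two-sided Fisher's exact test of VCaP16 against the 6 VCaP libraries gave p = 0.0119, the smallest that 3 against 6 libraries allow, and an adjusted p of 1 (Benjamini-Hochberg over 66108 regions). No consensus region passed the adjusted threshold of 0.05, and 1542 (2.33%) had an unadjusted p below it, of which 1 was a keratin region. With 66108 regions, a Fisher's exact p of 0.0119 can pass that threshold only if many regions reach it, so this outcome was nearly fixed by the design. The next region, 5.43 kb away within KRTAP16-1, was called in VCaP16 replicates 1 and 2 and nowhere else.

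VCaP16 libraries called more of the keratin regions than the other libraries. Of the 70 regions, 59, 60 and 66 were called in VCaP16 replicates 1 to 3, 50, 56 and 50 in VCaP_ENZ and 55, 51 and 49 in VCaP_DMSO. The shares were 88.1% ± 5.41 in VCaP16, 74.3% ± 4.95 in VCaP_ENZ and 73.8% ± 4.36 in VCaP_DMSO (SD, n = 3 each), and no VCaP16 library overlapped the other groups. Over all consensus regions they were 82.9% ± 5.41, 77.7% ± 4.84 and 76.7% ± 2.4 in the same order of groups. The mean difference of VCaP16 from VCaP_DMSO was 10.0 keratin regions, that from VCaP_ENZ 9.67, and VCaP_ENZ differed from VCaP_DMSO by 0.333, less than the spread of replicates. Without VCaP16 replicate 3, the longest list, the differences of VCaP16 were 5.0 and 4.67. With lists of equal length, from which the consensus was built anew, the shares were 87.5% ± 3.13 in VCaP16, 77.1% ± 3.93 in VCaP_ENZ and 78.6% ± 5.49 in VCaP_DMSO, beside 80.6% ± 0.888, 79.7% ± 1.58 and 79.8% ± 1.0 of all consensus regions. There the VCaP16 libraries called 54 to 58 keratin regions and the VCaP_DMSO libraries 47 to 54, so these ranges met. A region could enter the consensus through VCaP16 alone, so part of the higher VCaP16 share follows from that rule, as over all consensus regions. All merged regions are free of the consensus rule, but a peak in any VCaP16 library alone is enough to form such a region. Of these 101, VCaP16 libraries called 62 to 79, VCaP_ENZ 52 to 62 and VCaP_DMSO 50 to 59, so VCaP16 and VCaP_ENZ met. The mean shares were 67.0%, 55.4% and 53.8%, beside 63.4%, 58.1% and 57.2% of all merged regions. No p is given for these sums, since the clusters were chosen with earlier results of the data known.

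The higher counts of VCaP16 were clearer in the type I cluster, where 19, 22 and 22 of 24 regions were called in VCaP16, 15, 18 and 17 in VCaP_ENZ and 17, 15 and 15 in VCaP_DMSO. In the type II cluster 40, 38 and 44 of 46 were called in VCaP16, 35, 38 and 33 in VCaP_ENZ and 38, 36 and 34 in VCaP_DMSO, so the groups met. By stretch, the mean of VCaP16 exceeded that of VCaP_DMSO most among the KRTAP genes and from KRT222 to KRT28, at 5 against 3 regions in both. Both clusters hold regions that entered the consensus through VCaP16 alone, among them in these stretches and from KRT81 to KRT82. The counts of VCaP16 are thus higher there partly by the consensus rule. In the KRTAP stretch VCaP16 libraries called 4 to 6 of 6 consensus regions, VCaP_ENZ libraries 2 to 3 and every VCaP_DMSO library 3. From the hair keratin KRT81 to KRT82 they called 8 to 11 of 11, against 6 to 7 in VCaP_ENZ and 7 to 9 in VCaP_DMSO. From KRT222 to KRT28, which holds keratins of the hair root sheath, they called 4 to 6 of 6, against 4 to 5 in VCaP_ENZ and 3 in every VCaP_DMSO library. From KRT8 to KRT18 the numbers were 7 to 9 of 9 in VCaP16, 7 to 8 in VCaP_ENZ and 6 to 8 in VCaP_DMSO, and from KRT13 to KRT17 they were 7 of 8 in every VCaP16 library, 6 to 7 in VCaP_ENZ and 5 to 7 in VCaP_DMSO. Peaks covered 30.6 ± 4.25 kb of the clusters in VCaP16, 24.7 ± 3.29 kb in VCaP_ENZ and 25.6 ± 3.33 kb in VCaP_DMSO, from 67.7 ± 9.81, 56.0 ± 5.29 and 54.7 ± 4.51 peaks with mean widths of 453, 440 and 466 bp. The covered lengths overlapped between all groups.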

How the data were processed

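ATAC-seq peaks were taken from 9 lists, 1 per library, as the authors deposited them, and replicates were not pooled. Per the submitters' processing notes, BWA 0.7.15-r1140, MACS2 2.2.7.1, HOMER 3.12 and the build hg19 were used, whose roles and settings were not found there. Each deposited list gives position, name and a score per peak. Its definition is not given in the sources used. The lowest values lie just above 2, and scores served only for ranks and filters inside each list. Scores and list lengths move with depth, which is unknown, so groups were compared on ranks only in lists of equal length. Ranks in whole lists describe each library.

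Peaks on chromosomes 1 to 22 and X were merged at 1 bp of overlap, and a region counted as called where a peak of the library overlapped it. Coordinates are written from 1. Single regions were tested over the whole consensus by a two-sided Fisher's exact test, with p-values adjusted by Benjamini-Hochberg. Counting and testing were checked on simulated lists. Python 3.11.15, pandas 2.3.3, NumPy 2.4.6, SciPy 1.17.1 and Matplotlib 3.10.9 were used.

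The genes, clusters and lists were chosen with earlier results of these data known. Named regions are those at the 8 genes, those called in all libraries of 1 group and none of another, and the 5 with the best median rank. Other regions were named after their values were seen. Gene positions on hg19 were recalled, not read from a file. Of 55 keratin genes, 5 were left out of counts of starts because their start differed from RefSeq's spacing by more than 500 bp. Alternatives were a minimum score, equal lists, 50% overlap, all merged regions, 250 bp midpoint windows, other locus widths, single libraries left out and a test within replicate numbers. Leaving out both of the longest lists and comparing ranks in equal lists were added after seeing the data.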

Additional observations from a re-analysis of the deposited data

How the results depend on the processing

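Of 322 recomputed values, 265 stayed within 1.5 times (counts), the replicate spread (means) or the binomial interval (shares), and 57 moved further. The counts of luminal starts with a peak in every library, 3, and of basal starts with a peak in any, 0, were kept under every alternative run for them. Except where a setting leaves out libraries or regions by construction, the cause was not tested.

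Counts of regions called in every library of 1 group and none of another were small and moved with the settings. With a call in at least 2 of 3 libraries they were 9 for VCaP16 and not VCaP_DMSO, 4 for VCaP_ENZ and not VCaP_DMSO, 1 in reverse, 7 for VCaP16 and not VCaP_ENZ, 1 in reverse, and 6 for VCaP16 and none of 6 VCaP libraries, with the shares of all consensus regions given above. A minimum score of 5 gave 1 of 60 for VCaP_ENZ and not VCaP_DMSO, beside 0.925% of all consensus regions. It gave 3 for VCaP16 and not VCaP_ENZ, beside 1.76%, and 1 in reverse, beside 0.547%. For VCaP16 and not VCaP_ENZ, lists of equal length gave 2 of 64, beside 1.31%, and an overlap of at least 50% gave 4 of 66, beside 2.3%. The overlap gave 1 for VCaP_DMSO and not VCaP_ENZ, beside 1.1%. Leaving out both of the longest lists gave 2 of 58 for VCaP16 and not VCaP_DMSO, beside 3.51%. It gave 5 for VCaP16 and not VCaP_ENZ, beside 5.15%, and 2 for VCaP16 against all VCaP libraries, beside 1.86%. With single libraries left out, the range was 1 to 5 for VCaP16 and not VCaP_DMSO and 0 to 0 in reverse, 0 to 2 for VCaP_ENZ and not VCaP_DMSO and 0 to 1 in reverse, 1 to 4 for VCaP16 and not VCaP_ENZ and 0 to 1 in reverse, and 1 to 4 for VCaP16 against all VCaP libraries and 0 to 0 in reverse. The highest counts came without VCaP16 replicate 1 against VCaP_DMSO, and without VCaP16 replicate 2 or VCaP_ENZ replicate 2 against VCaP_ENZ. Without VCaP16 replicate 3 these were 2 and 2, and the count against all VCaP libraries was 4 without VCaP16 replicate 2.

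The difference in keratin regions called per library, VCaP16 minus VCaP_DMSO, was 5.0 with a minimum score of 5, 5.67 with lists of equal length and 3.83 without both of the longest lists, and ran from 5.0 to 11.8 with single libraries left out. VCaP_ENZ minus VCaP_DMSO was -4.33 with an overlap of at least 50% and -4.17 without both of the longest lists, and ran from -2.67 to 2.5. VCaP16 minus VCaP_ENZ was 5.33 with a minimum score of 5 and ran from 4.67 to 12.3. The covered length differed by 2.63 to 6.95 kb for VCaP16 minus VCaP_DMSO, -2.72 to 1.02 kb for VCaP_ENZ minus VCaP_DMSO and 3.48 to 7.8 kb for VCaP16 minus VCaP_ENZ with single libraries left out.

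Luminal minus basal stayed above 0 in every group under every setting. With 5 kb on either side of the genes it was 2.33 in VCaP16, 3.33 in VCaP_ENZ and 3.0 in VCaP_DMSO. Within 1 kb of the starts it was 3.0 in each group. With KRT7 and KRT17 added it was 4.33 in VCaP16, 5.33 in VCaP_ENZ and 5.0 in VCaP_DMSO. A minimum score of 5 gave 2.33 in VCaP16, 4.33 in VCaP_ENZ and 3.0 in VCaP_DMSO, and an overlap of at least 50% gave 2.33 in VCaP16, 3.67 in VCaP_ENZ and 2.67 in VCaP_DMSO. With single libraries left out it ran from 3.0 to 3.5 in VCaP16, 4.0 to 4.5 in VCaP_ENZ and 3.5 to 4.5 in VCaP_DMSO. The percent of keratin regions called in every library was 25.8% with an overlap of at least 50%, 33.7% over all merged regions and 49.3% to 55.1% with single libraries left out.

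The deviations of same-numbered libraries from their group means correlated between -0.028 and 0.00788, and those of libraries with different numbers between -0.027 and 0.0518. Same-numbered libraries were thus not more alike in their calls, which does not show whether they were handled together. With a replicate block, an exact test within replicate numbers, 0 keratin regions passed an adjusted p of 0.05, as without the block. The smallest p of that exact test is 0.037, which can pass the adjustment over all consensus regions only if many of them reach it. The block thus decides nothing here. The unknown depth limits every comparison of calls, and a region not called is not shown to be closed.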

Other observations

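Of the 101 keratin regions, 25 were called in 1 library only, and 8 of these in VCaP16 replicate 3, the longest list. The same shares over all merged regions are not given here, so nothing about the clusters is drawn from these counts. Besides the region called in every VCaP16 library, 5 of 70 keratin regions (7.14%) were called in 2 VCaP16 libraries and in no VCaP library, beside 2.87% of all consensus regions. These 5 entered the consensus through VCaP16 alone, as did all regions behind the 2.87%. They lay between KRT83 and KRT85, between KRT6B and KRT6C, inside KRT79, inside KRT26 and inside KRTAP16-1. A pair of regions between KRT222 and KRT24, at chromosome 17, 38827271 to 38827805 and 38850614 to 38851121, were each called in 2 of 3 VCaP16, 2 of 3 VCaP_ENZ and 0 of 3 VCaP_DMSO libraries. They were named after their values were seen. None of these regions was tested singly beyond the adjusted Fisher's exact test over the whole consensus. None passed it, but with 3 against 6 libraries a region can pass only if many regions reach the smallest p.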
